A study of Mus musculus with 6 samples.

Results

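The TGF-beta ligands, their receptors, the proteins that hold the ligands latent and the Smad proteins that carry the signal were examined in mouse hearts that overexpress fatty acid synthase (FASN). The set held 9 of the 18193 genes named on the array: Tgfb1, Tgfb2, Tgfb3, Tgfbr1, Tgfbr2, Ltbp1, Ltbp2, Smad3 and Smad7. Every array probe set annotated to exactly 1 of these symbols was taken, which gave 22 of the 45037 non-control probe sets, of which 34945 carried a single gene symbol. Probe sets of these genes with several symbols numbered 0. Of the 22, 14 had a mean level in the brighter 50% of all probe sets and were tested, with at least 1 for each of the 9 genes, and 8 were dim and are given by their signals only.

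TGF-beta is secreted bound to its own propeptide and to a latent TGF-beta binding protein, which anchors the complex in the extracellular matrix until it is activated. The freed ligand binds the type II receptor, which activates the type I receptor, which in turn phosphorylates Smad2 and Smad3. These enter the nucleus with Smad4 and induce genes of matrix, contractile and feedback proteins. In the heart the pathway is best known for driving fibroblasts toward matrix-producing cells.

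The samples were hearts of male C57BL/6J mice, with 2 arrays in each of 3 groups: a line with high cardiac FASN expression, a line with low cardiac FASN expression, and age-matched B6 controls without a transgene named. In both lines the alpha-MHC promoter, a promoter of heart muscle cells, drives FASN. The labels give no age in weeks. Each FASN level is represented by 1 line, so level and line cannot be told apart. Whether both arrays of a group represent separate animals is not labelled. The p-values therefore reflect array-to-array spread only, and that may be technical.

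Values are linear signal intensities in arbitrary units, and differences are given on the scale of log2(signal + 16). A probe set is said to have risen or fallen if its limma p, adjusted by the Benjamini-Hochberg method over all 22519 tested probe sets, was below 0.05. The number of arrays limits the precision. Fasn itself read 2268 and 2104 on the high-line arrays, 462 and 481 on the low-line arrays, and 213 and 187 on the control arrays, in the order of the labels. The 2% trimmed mean signal of every array was 300.002, and arrays of the same group correlated at 0.987 to 0.990 against 0.969 to 0.977 between groups, across probe sets.

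In the high line Ltbp1 and Tgfb2 rose and Smad7 fell. In the low line Ltbp1 and Tgfbr1 rose. The 2 control arrays serve both lines, which makes the high-line and low-line differences partly dependent. In RNA of whole hearts, fewer cells of a type and less RNA per cell cannot be told apart. By the brightest probe set of each gene, 2 of 9 genes rose and 1 fell in the high line, and 2 rose and 0 fell in the low line. Over all 14 tested probe sets 4 passed in the high line, where 14.4% of all tested probe sets passed (8.18% higher and 6.18% lower), and 2 passed in the low line, where 24.3% did (13.5% higher and 10.8% lower). Between the lines 0 of 14 passed with limma, against 18.6% of all tested probe sets (9.69% higher and 8.87% lower in the high line), and 4 of the 14 had an unadjusted p below 0.05. The median log2 difference of the 14 was 0.13 for the high line, 0.16 for the low line and 0.052 between lines, where all tested probe sets had medians of 0.037, 0.018 and 0.0055.

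The genes that rose in the high line have the following sequences before their annotated start sites, shown because Ltbp1 and Tgfb2 were higher in the same hearts. Ltbp1 is listed with 2 starts, of which the second lies further along the plus strand. Capitals mark each match to the Smad core element, CAGAC or its reverse complement GTCTG. The sequences are from RefSeq with build GRCm38.p6, on the strand of the gene, and 7 of the 9 genes had an entry (Tgfb3 and Smad7 had none).
Ltbp1 first start, chr17:75005279-75005479, plus strand: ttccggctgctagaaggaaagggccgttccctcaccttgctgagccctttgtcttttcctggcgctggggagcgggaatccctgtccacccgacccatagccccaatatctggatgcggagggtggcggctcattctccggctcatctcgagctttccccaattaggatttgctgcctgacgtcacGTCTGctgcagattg
Ltbp1 second start, chr17:75178531-75178780, plus strand: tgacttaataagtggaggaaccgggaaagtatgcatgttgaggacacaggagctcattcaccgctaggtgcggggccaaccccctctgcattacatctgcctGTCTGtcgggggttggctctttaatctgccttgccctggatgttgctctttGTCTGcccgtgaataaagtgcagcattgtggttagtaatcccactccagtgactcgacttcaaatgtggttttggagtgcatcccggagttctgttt
Tgfb2, chr1:186705990-186706239, minus strand: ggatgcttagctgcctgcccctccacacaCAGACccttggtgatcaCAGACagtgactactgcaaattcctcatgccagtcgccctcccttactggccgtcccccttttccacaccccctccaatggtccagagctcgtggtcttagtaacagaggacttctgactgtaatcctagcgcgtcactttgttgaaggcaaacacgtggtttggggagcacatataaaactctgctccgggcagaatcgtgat
The first Ltbp1 stretch of 201 bases held 1 match, the second of 250 bases held 2 and the Tgfb2 stretch of 250 bases held 2. Among all 32851 promoters 36% held a match in the same 201 positions and 42.2% in the same 250, so a match is common. The AP-1 element TGAGTCA and the GC box GGGCGG, read on both strands, had 0 matches in these 3 stretches. The E-box CACGTG had 1 match, in the Tgfb2 stretch and apart from the capitals, and 6.02% of all promoters held it in 250 bases. The array does not show which start a transcript came from.

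Among the latency proteins, Ltbp1 had the most firmly supported difference of the set. Ltbp1 binds the latent complex and tethers it to fibrillin and fibronectin in the matrix. Its brightest probe set (1448870_at) read 889.5 and 976 on the high-line arrays, 847 and 877 on the low-line arrays, and 581 and 553 on the control arrays. All 4 transgenic arrays lay above both control arrays, and the high line lay just above the low line without overlap.

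The group means of Ltbp1 were 933 ± 61.4, 862 ± 21.1 and 567 ± 19.9 (SD, n = 2). Fold changes are given on the log2(signal + 16) scale, where Ltbp1 was 1.63-fold higher in the high line and 1.51-fold higher in the low line. On the log2 scale the rise of Ltbp1 was 0.70 ± 0.0804 (SE) in high-line hearts (limma adjusted p = 0.000555). It was 0.59 ± 0.0804 in low-line hearts (limma adjusted p = 0.000787). The lines differed by 0.11 ± 0.0804 (adjusted p = 0.385), so their order was not resolved. Both rises passed in 18 of 18 alternative fits, with adjusted p up to 0.0236 and 0.0176. A dimmer Ltbp1 probe set (1447547_at) read 98.5 and 76.6 on the high-line arrays, 69.5 and 92.1 on the low-line arrays, and 61.4 and 69.8 on the control arrays. Its differences from control had the same sign, 0.34 and 0.24 on the log2 scale, and did not pass (limma adjusted p = 0.366 and 0.489). The third probe set was dim on all arrays, between 3.71 and 41.2.

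Ltbp2, a relative that sits on elastic fibres and does not bind latent TGF-beta, was measured by 1 probe set. Its signals were low, 107 and 73.9 on the high-line arrays, 55.4 and 101 on the low-line arrays, and 52.7 and 62.7 on the control arrays. Both high-line arrays lay above the controls, and the low line overlapped them, with low-line array 1 between the controls and low-line array 2 above both. Its differences of 0.52 ± 0.284 (SE) and 0.31 on the log2 scale did not pass (limma adjusted p = 0.268 and 0.466).

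**Figure D1:**
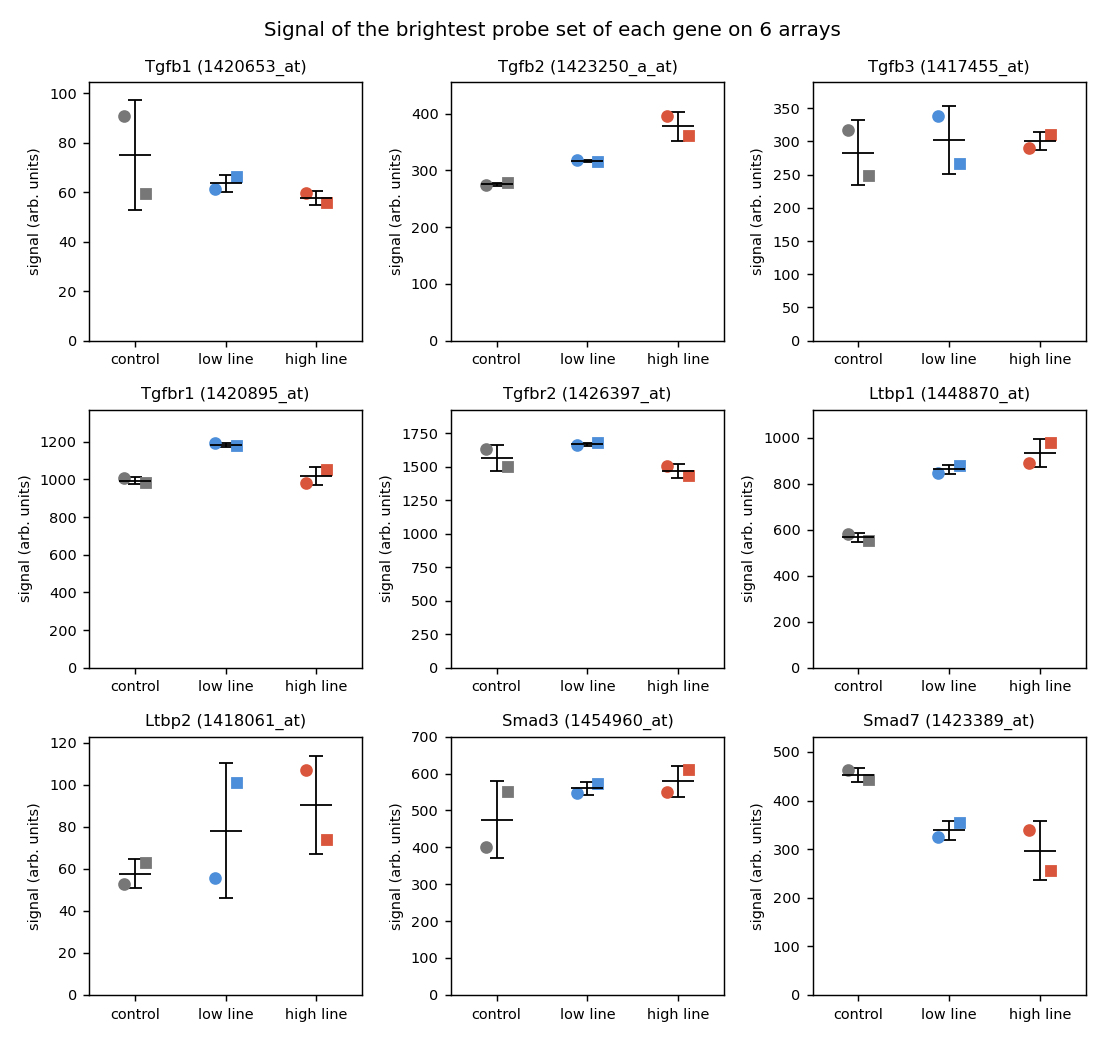
Signal in arbitrary units (vertical axes, from 0) of the brightest probe set of each of the 9 genes on the 6 arrays, by group; circles are array 1, squares array 2, and horizontal bars with whiskers are the mean ± SD (n = 2). Ltbp1 is higher in all 4 transgenic arrays than in both controls, Tgfb2 is highest in the high line, and Smad7 is lower in all 4 transgenic arrays.

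Of the 3 ligands, Tgfb2 rose in the high line, and no tested probe set of Tgfb1 or Tgfb3 passed in either line. Tgfb2 is best known for its part in heart development. Its brightest probe set (1423250_a_at) read 396 and 360.1 on the high-line arrays, 318 and 315 on the low-line arrays, and 274 and 277 on the control arrays. The groups did not overlap and stood in the order of Fasn. The means were 378 ± 25.3, 316 ± 1.82 and 275 ± 2.47 (SD, n = 2).

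Tgfb2 was 1.35-fold higher in the high line than in control, 0.43 ± 0.108 (SE) on the log2 scale (limma adjusted p = 0.0272). The low line differed from control by 0.19 (adjusted p = 0.241) and the lines from each other by 0.24 (adjusted p = 0.153), so neither neighbouring pair in the order was separated by the test. The rise in the high line passed in 10 of 18 alternative fits. It was lost with quantile normalization (adjusted p = 0.0584), with the untrended variance (0.0549) and with only the 4 arrays compared (0.0537). It was also lost without high-line array 1 (0.112), low-line array 1 (0.0545), low-line array 2 (0.0544), control array 1 (0.114) or control array 2 (0.109).

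The other Tgfb2 probe sets gave mixed support. The _a_at probe set 1450922_a_at, which like 1450923_at comes from the same annotated source sequence, read 209.5 and 224 on the high-line arrays, 182 and 199 on the low-line arrays, and 155 and 156 on the control arrays. These groups also did not overlap, and the difference of 0.44 ± 0.140 (SE) in the high line missed the threshold (limma adjusted p = 0.0649). The probe set 1450923_at read 220.4 and 249 on the high-line arrays, 287 and 175 on the low-line arrays, and 215 and 195 on the control arrays. Here the low-line arrays disagreed with each other. A dim probe set (1438303_at) spread between 24.7 and 70.2 with a log2 difference of -0.25 in the high line, which did not pass (adjusted p = 0.718).

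Tgfb1, the most studied ligand in fibrosis, was dim on its brighter probe set, at 59.5 and 55.5 on the high-line arrays, 61.1 and 65.9 on the low-line arrays, and 90.7 and 59.1 on the control arrays. Control array 1 stood above the other arrays. The log2 differences of -0.28 ± 0.243 (SE) and -0.17 did not pass (limma adjusted p = 0.487 and 0.656). Its other probe set ranged from 20.6 to 61.9 with the groups overlapping.

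Tgfb3 read 291 and 309.8 on the high-line arrays, 338 and 266 on the low-line arrays, and 318 and 249 on the control arrays. All 3 groups overlapped. Its differences from control were 0.089 on the log2 scale in both lines, with an SE of 0.154 (limma adjusted p = 0.753 and 0.721).

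Of the receptors, Tgfbr1 rose slightly in the low line. Tgfbr1 is the type I receptor kinase that phosphorylates Smad2 and Smad3. It read 982 and 1050.1 on the high-line arrays, 1192 and 1176 on the low-line arrays, and 1006 and 980.5 on the control arrays. Both low-line arrays stood above the other 4, and the high line overlapped the controls.

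The rise of Tgfbr1 in the low line was 1.19-fold, 0.25 ± 0.0688 (SE) on the log2 scale (limma adjusted p = 0.0264), and the high line differed from control by 0.032 (adjusted p = 0.802). The difference between the lines, -0.22, missed the threshold (adjusted p = 0.0548). The rise passed in 13 of 18 alternative fits. It was lost with the untrended variance (0.0992) and without low-line array 1 (0.136), low-line array 2 (0.113), control array 1 (0.0844) or control array 2 (0.13). The other 2 Tgfbr1 probe sets were dim, between 6.79 and 52.8.

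Tgfbr2, the type II receptor that binds the ligand first, read 1506 and 1429 on the high-line arrays, 1658 and 1674 on the low-line arrays, and 1633 and 1498 on the control arrays. The low line was highest and the high line overlapped the controls. The differences of -0.091 and 0.090 on the log2 scale from control, with an SE of 0.067, did not pass (limma adjusted p = 0.411 and 0.37), nor did that of -0.18 between the lines (adjusted p = 0.091). Its other 2 probe sets lay between 0.293 and 53.6.

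Smad7 fell in the high line on both of its probe sets. Smad7 is an inhibitory Smad that TGF-beta itself induces and that blocks the type I receptor. The brighter probe set (1423389_at) read 339.9 and 254 on the high-line arrays, 324 and 353 on the low-line arrays, and 462 and 443 on the control arrays. The other (1443771_x_at) read 198 and 142 on the high-line arrays, 243 and 281 on the low-line arrays, and 308 and 481 on the control arrays. On both, all 4 transgenic arrays lay below both controls. The suffix _x_at marks probes that may also match other transcripts.

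The brighter Smad7 probe set was 1.51-fold lower in the high line on the log2(signal + 16) scale, with means of 297 ± 60.6 against 452 ± 13.7 (SD, n = 2). The log2 differences in the high line were -0.59 ± 0.138 (SE) and -1.12 ± 0.214 (limma adjusted p = 0.0198 and 0.00806). In the low line they were -0.40 and -0.53 and did not pass (adjusted p = 0.0614 and 0.103). Between the lines they were -0.19 and -0.59 and did not pass (adjusted p = 0.382 and 0.0864), so a difference between the lines in Smad7 was not shown.

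The fall of the brighter Smad7 probe set in the high line passed in 14 of 18 alternative fits and that of the other in 15 of 17. For the brighter it was lost with the untrended variance (adjusted p = 0.0889) and without high-line array 2 (0.0606), control array 1 (0.11) or control array 2 (0.0883). For the other it was lost with the untrended variance (0.0722) and without control array 2 (0.0672). In the low line the brighter probe set passed as a fall in 6 of 18 fits, among them quantile normalization (0.042), cyclic loess (0.0428) and the fit of only the 4 arrays compared (0.0145). Leaving out high-line array 1 (0.0177) or 2 (0.0157) also brought it past the threshold. The other probe set passed as a fall in the low line without control array 1 (0.0334), and in the comparison of the lines without high-line array 1 (0.0485).

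Smad3, the receptor-activated Smad that induces matrix genes, read 549.7 and 609 on the high-line arrays, 547 and 572 on the low-line arrays, and 401 and 549 on the control arrays. Control array 1 stood below the other 5 arrays. The differences from control were 0.29 ± 0.135 (SE) and 0.25 on the log2 scale (limma adjusted p = 0.188 and 0.223). Without control array 2 both passed (adjusted p = 0.0431 and 0.0361). The other 2 Smad3 probe sets were dim, between 4.95 and 58.5.

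**Figure D2:**
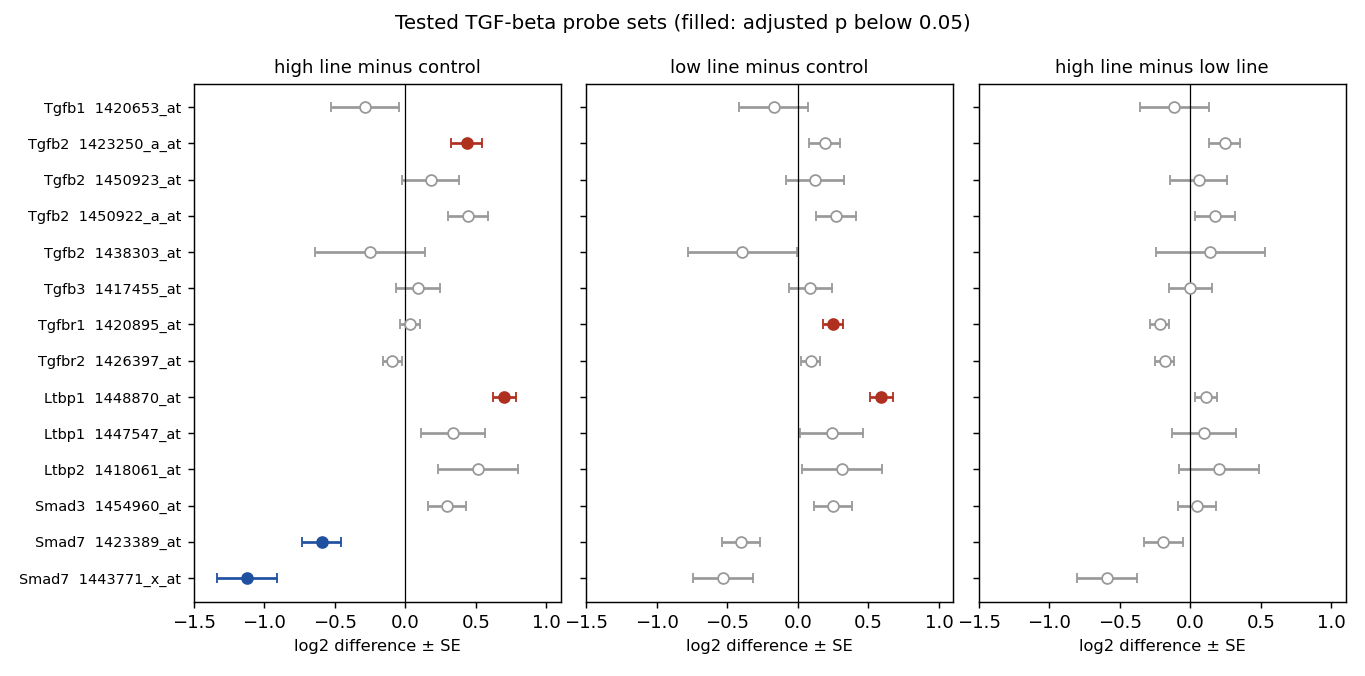
Log2 difference ± SE (horizontal axes) of the 14 tested probe sets in the 3 comparisons; filled points passed at an adjusted p below 0.05, red higher and blue lower, and open points did not pass. Ltbp1 1448870_at lies at 0.70 and 0.59 against control, the Smad7 probe sets at -0.59 and -1.12 in the high line, and no point is filled between the lines.

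The tested probe set with the widest spread of group means was Smad7 1443771_x_at, at 1.12 on the log2 scale. Among 19959 tested probe sets with 1 symbol, the 5 most like it over the 6 arrays were those of Cep68 (Pearson's r = 0.992), Slc25a47 (0.992), Mrpl13 (0.989), Nol8 (0.984) and Prss53 (0.984). The 6 points fall into 3 groups, and how closely other profiles are matched was not tested.

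The other genes of the pathway were grouped by role, with the brightest probe set of each gene. A rise or fall named for them is that of this probe set only, and their other probe sets are not described. All list counts below stand against the calls over all tested probe sets, which include several probe sets of some genes. These were 14.4% in the high line (8.18% higher and 6.18% lower) and 24.3% in the low line (13.5% higher and 10.8% lower). With 1 probe set per gene, 2198 of 11498 passed in the high line and 3449 of 11498 in the low line. These are larger shares, and the lists are nearer to them in kind. Whether any list was called more often than either share was not tested. Among 13 measured genes of latency and activation 3 rose and 0 fell in the high line, with a median of 0.23, and 3 rose and 0 fell in the low line, with a median of 0.065. In the high line only Mmp2 passed when low-line array 1 or 2 was left out. Mmp2, a gelatinase that can release TGF-beta from its latent complex, read 892 and 841 on the high-line arrays, 1093 and 1102 on the low-line arrays, and 625 and 596 on the control arrays. It rose by 0.49 ± 0.074 (SE) and 0.83 on the log2 scale (limma adjusted p = 0.00235 and 7.49e-05).

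Ltbp3 and Ltbp4, the other latent TGF-beta binding proteins, rose in the high line by 0.27 and 0.57 (limma adjusted p = 0.032 and 0.048), and their low-line differences of 0.065 and 0.046 did not pass. With arrays left out singly, the Ltbp3 call was lost without high-line array 1, either low-line array or control array 1 (adjusted p up to 0.198). The Ltbp4 call was lost without either high-line array, either low-line array or control array 2 (up to 0.261). Ltbp4 passed in 6 of 18 alternative fits and was also lost with quantile (0.0834) and cyclic loess (0.0731) normalization, median centring (0.069), pseudocount 1 (0.0505), no filter (0.106), the untrended variance (0.148) and only the 4 arrays compared (0.0732). Ltbp3 passed in 10 of 18 and was also lost with median centring (0.0644), no filter (0.0675), the untrended variance (0.152) and the 4 arrays (0.0658). Itgb1, a subunit of the integrins, rose in the low line by 0.41 (limma adjusted p = 0.00227), as did Fbn2, a fibrillin, by 0.95 (0.0212, and up to 0.15 without either low-line array or control array 2). Thbs1, a secreted activator of latent TGF-beta, read 101 and 128 on the high-line arrays, 129.7 and 119 on the low-line arrays, and 163 and 146 on the control arrays, and did not pass.

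Among 12 other receptors of the superfamily 1 rose and 2 fell in the high line, and 2 rose and 2 fell in the low line, with medians of 0.024 and -0.11 (the former -0.0039 with cyclic loess, -0.0050 with median centring and -0.0047 without high-line array 1). In the high line 1 gene passed without high-line array 2 or either control array. Bmpr1a, a type I receptor for bone morphogenetic proteins (BMPs), read 1583 and 1587 on the high-line arrays, 2314 and 2489.8 on the low-line arrays, and 1126 and 1100.1 on the control arrays. The groups did not overlap. Bmpr1a rose by 0.50 ± 0.0629 (SE) in the high line and by 1.098 in the low line (limma adjusted p = 0.000894 and 5.76e-06), and the difference between the lines was -0.59 (limma adjusted p = 0.000419).

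Acvrl1, the endothelial type I receptor ALK1, fell from 275 ± 0.531 in controls to 192 ± 1.37 with high and 155 ± 2.47 with low FASN expression (SD, n = 2). Its log2 differences were -0.49 and -0.77 (limma adjusted p = 0.0364 and 0.0026). The high-line call was lost in all 6 fits that left out an array, with adjusted p up to 0.152. Bambi, a decoy receptor, fell in the high line by 0.38 (limma adjusted p = 0.0327, and up to 0.184 without high-line array 2 or either control array). In the low line Acvr1b, an activin type I receptor, fell by 0.69 (adjusted p = 0.000782), and Acvr1 rose by 0.34 (0.0301, and up to 0.198 without either low-line or either control array). The co-receptors Tgfbr3 and Eng did not pass against control in either line.

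Among 10 tested Smads and transducers 3 rose and 0 fell in the high line, and 1 rose and 1 fell in the low line, with medians of 0.16 and 0.17. Smad4, the shared partner of the activated Smads, read 2505 and 2609.6 on the high-line arrays, 2139 and 2197 on the low-line arrays, and 1968 and 2059.7 on the control arrays. It rose by 0.34 ± 0.0579 (SE) with high FASN expression (limma adjusted p = 0.00448) and differed by 0.11 in the low line (adjusted p = 0.222). Sp1, a transcription factor that acts with Smads, rose by 0.42 and 0.56 (adjusted p = 0.00499 and 0.000565). With the untrended variance the high-line calls of Smad4 and Sp1 were lost (0.0782 and 0.0596). Tab1, a partner of the kinase TAK1, rose in the high line by 0.96 from a low control signal of 78.8 ± 27.1 (SD, n = 2; limma adjusted p = 0.0246, and up to 0.151 without high-line array 1 or control array 2). Zfyve9, the anchor that presents Smads to the receptor, fell in the low line by 0.49 (limma adjusted p = 0.0155, and up to 0.112 without low-line array 1 or control array 2). Smad2 read 315 and 368 on the high-line arrays, 316 and 358 on the low-line arrays, and 267 and 299.6 on the control arrays, and did not pass.

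Among 15 inhibitors 2 rose and 1 fell in the high line, and 1 rose and 2 fell in the low line, with medians of -0.048 and 0.069. Without control array 2 the high-line median was 0.021 and 1 gene passed. In the low line 0 passed without low-line array 1 or control array 2, and 1 without low-line array 2 or control array 1. Without low-line array 1 the low-line median was 0.0092. Skil, a repressor of Smads that TGF-beta induces, read 975 and 964 on the high-line arrays, 1353 and 1231 on the low-line arrays, and 1262 and 1297 on the control arrays. It fell in the high line by 0.39 (a difference of -0.39 ± 0.0707, SE; limma adjusted p = 0.00598) and was also lower there than in the low line, by -0.41 (adjusted p = 0.00446). The calls were lost without control array 2 (0.0547) and without low-line array 1 (0.0568), in that order, and both with the untrended variance (0.0686 and 0.0577). Bgn, a matrix proteoglycan that binds TGF-beta, was 3641 ± 33.7 in the high line against 2222 ± 7.81 in control (SD, n = 2) and rose by 0.71 (limma adjusted p = 7.23e-05). Its low-line difference of 0.10 did not pass (adjusted p = 0.242). Pmepa1, a feedback inhibitor that TGF-beta induces, rose in the high line by 0.28 (limma adjusted p = 0.0408), a call lost in all 6 fits that left out an array (up to 0.191). Smad6, the inhibitory Smad of BMP signalling, fell in the low line by 0.49 (limma adjusted p = 0.00792, and up to 0.0733 without low-line array 1 or control array 2). Nedd4l and Smurf2, ubiquitin ligases of the pathway, fell by 0.32 and rose by 0.26 in the low line (limma adjusted p = 0.0388 and 0.0223, and up to 0.214 and 0.157 without either low-line or either control array). Ski did not pass.

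Among 9 tested other ligands 0 rose and 1 fell in the high line, and 1 rose and 0 fell in the low line, with medians of 0.046 and -0.17 (the former -0.020 with quantile and -0.017 with cyclic loess normalization, -0.086 with the filter at the 75th percentile, -0.065 without high-line array 2 and -0.037 without control array 1). Without either control array 0 passed in the high line, and 0 passed in the low line without any of its own arrays or the controls. Bmp2 read 164 and 128 on the high-line arrays, 159 and 183 on the low-line arrays, and 97.9 and 107 on the control arrays, and rose in the low line by 0.66 (limma adjusted p = 0.0255, and up to 0.162 without either low-line or either control array). Nodal fell in the high line from 76.2 ± 10.7 to a dim 24.7 ± 8.52 (SD, n = 2; limma adjusted p = 0.0181, and up to 0.127 without high-line array 1 or either control array).

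**Figure D3:**
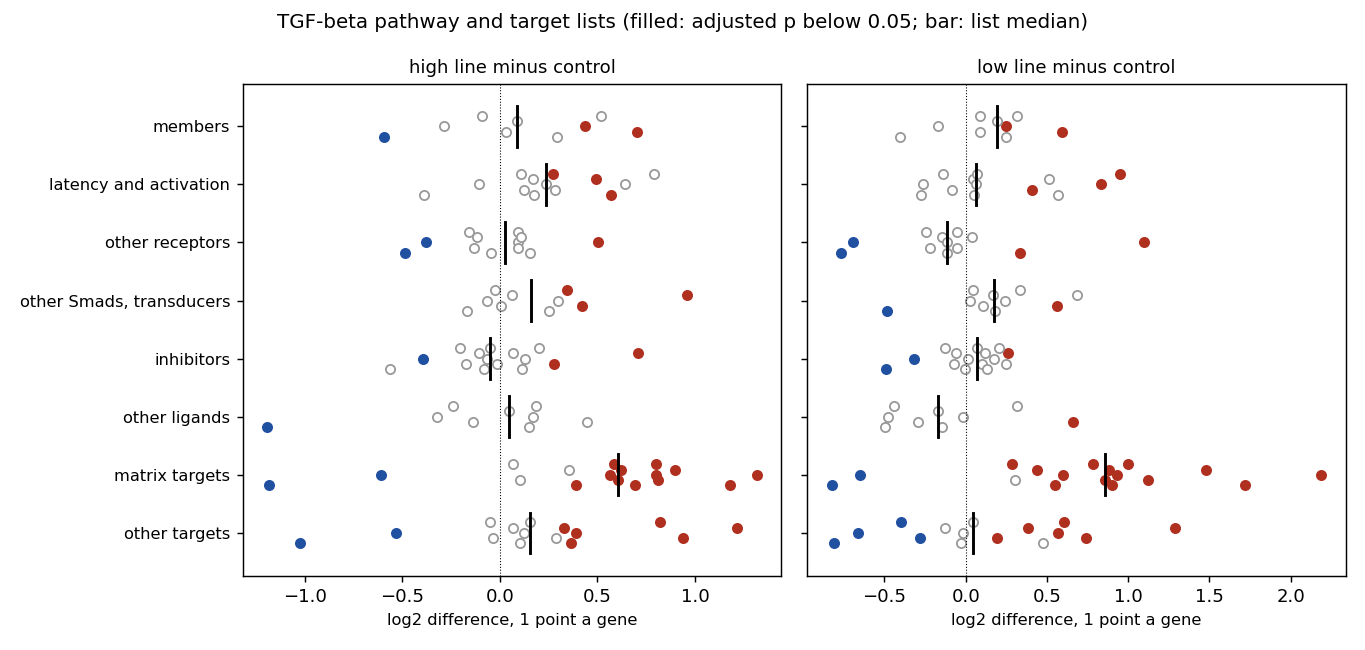
Log2 difference from control (horizontal axes) of each tested gene, 1 point a gene, in the high line and the low line, by list; filled points passed at an adjusted p below 0.05 (red higher, blue lower), and black bars are list medians. Matrix targets have medians of 0.61 and 0.86, and the other lists have medians between -0.17 and 0.23.

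Matrix genes that TGF-beta is known to induce moved mostly upward in both lines. Of 17 tested, 12 rose and 2 fell in the high line, and 14 rose and 2 fell in the low line, with medians of 0.61 and 0.86 against 0.037 and 0.018 over all tested probe sets. Fn1, the gene of fibronectin, read 910.03 and 914 on the high-line arrays, 1032 and 1123 on the low-line arrays, and 564 and 613 on the control arrays. It rose by 0.62 ± 0.0798 (SE) and 0.86 (limma adjusted p = 0.00105 and 9.65e-05). The collagen genes Col1a1, Col1a2 and Col3a1 rose in both lines, between 0.80 and 1.72 on the log2 scale. Postn, a matrix protein of activated fibroblasts, and Eln, elastin, did so too, by 0.58 and 1.18 with high and by 0.996 and 2.19 with low FASN expression. Between the lines 6 of the 17 matrix targets were lower in the high line and 0 were higher, with a median of -0.24. Of all tested probe sets 8.87% were lower and 9.69% higher in the high line. With the untrended variance 2 matrix targets were lower.

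The targets that fell in both lines were Timp1 and Ccn2. Ccn2, the connective tissue growth factor and a direct Smad target, read 3328 and 3095 on the high-line arrays, 3103 and 3141 on the low-line arrays, and 4989 and 4834 on the control arrays. All 4 transgenic arrays lay below both controls, with log2 differences of -0.61 ± 0.0558 (SE) and -0.65 (limma adjusted p = 0.000142 and 5.92e-05). Timp1, an inhibitor of metalloproteinases, read 113 and 144 on the high-line arrays, 150.4 and 189 on the low-line arrays, and 301 and 323 on the control arrays, with log2 differences of -1.19 and -0.83 (limma adjusted p = 0.00176 and 0.00657). The low-line fall of Timp1 was lost without low-line array 1 (0.0627) and without control array 2 (0.0548). Tgfbi, a secreted protein named for its induction by TGF-beta, read 666 and 829 on the high-line arrays, 898 and 857 on the low-line arrays, and 692 and 727 on the control arrays, and did not pass (adjusted p = 0.728 and 0.0624).

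Targets outside the matrix were mixed. Of 15 tested, 6 rose and 2 fell in the high line, and 6 rose and 4 fell in the low line, with medians of 0.15 and 0.043, against calls of 14.4% and 24.3% over all tested probe sets. The low-line median was -0.013 without control array 1 and -0.022 with the filter at the 75th percentile. High-line calls numbered 5 without control array 1 and 4 without control array 2. Low-line calls numbered 4 without low-line array 2 and 6 without either control array. The contractile genes Acta2 and Tagln rose, Acta2 from 3792 and 3610.4 in controls to 8780.3 and 8466 with high and 9237 and 8878 with low FASN expression, and Tagln by 0.82 and 0.61 (limma adjusted p = 0.000131 and 0.000438). Ier3, an early response gene, fell by 1.03 and 0.81 (differences of -1.03 and -0.81; limma adjusted p = 4.28e-05 and 0.00011). Id3, a target of BMP signalling, read 1733 and 1721 on the high-line arrays, 1143 and 1019 on the low-line arrays, and 1324 and 1309 on the control arrays. It rose in the high line by 0.39 (limma adjusted p = 0.00676) and fell in the low line by 0.28 (0.0178), and the lines differed by 0.67 (0.000422). The rise was lost without control array 2 (0.0545) and with the untrended variance (0.0774), and the fall without low-line array 2 or either control array (up to 0.154). Cdkn1a, a cell cycle inhibitor, fell in both lines by 0.53 and 0.66 (limma adjusted p = 0.0297 and 0.00664, and up to 0.154 without any array but high-line array 2, and up to 0.0537 without low-line array 2 or control array 1). Id1 fell in the low line by 0.40 (adjusted p = 0.0141, and up to 0.109 without either low-line array or control array 2).

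Markers of the cell types that a heart sample can hold were read on the same arrays. All marker counts below stand against the shares of all tested probe sets. In the high line 8.18% rose and 6.18% fell, and in the low line 13.5% rose and 10.8% fell. Heart muscle markers were bright in every array, with summed signals of 251577 to 281898 on high-line arrays, 207686 to 212137 on low-line arrays and 221845 to 231175 in controls; 7 of 10 rose in the high line and Tnnt2 fell in the low line. Fibroblast markers, which include Col1a1 and Col1a2, summed to 60189 to 60822, 58199 to 59216 and 50133 to 51927; 7 of 11 rose in the high line, and 8 of 11 rose in the low line. Smooth muscle markers, which include Acta2 and Tagln, summed to 18713 to 19636, 17747 to 17879.6 and 12812 to 13299.7; 5 of 7 tested rose in the high line (Acta2, Myh11, Tagln, Cnn1, Mylk), and 4 of these, without Mylk, rose while Smtn and Des fell in the low line. Endothelial markers summed to 9859.7 to 10098, 10037 to 10289.9 and 8779.5 to 9063; 4 of 9 rose in each line (Cdh5, Tek and Esam in both, Kdr in the high and Emcn in the low line) and Flt1 fell in both.

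Macrophage markers summed to 13254 to 13403 on high-line arrays, 16432 to 16967 on low-line arrays and 14839 to 14984 in controls; 4 of 10 fell in the high line (C1qb, Mrc1, Cd163, Cd14), and Adgre1, C1qc and Lyz2 rose and Cd163 fell in the low line. Platelet markers, of interest because platelets store Tgfb1, summed to 1393 to 1506, 1803 to 1815 and 1802 to 1923; of 4 tested Pf4 fell in the high line and Ppbp in the low line, and Gp9 was near the bottom of the scale at 3.22 to 8.39. Lymphocyte markers summed to 667 to 669.97, 2443 to 2459 and 185 to 262; of 4 tested Ms4a1, Ighm and Jchain rose in both lines and Cd8a in the low line, while the dim Cd4 stayed between 4.77 and 10.6. Adipocyte markers summed to 25150.0 to 27956, 22139 to 22749.6 and 19946 to 20352, and 3 of 4 tested (Adipoq, Retn, Cidec) rose in each line. Airway markers summed to 3092 to 3282, 255 to 313 and 241 to 252; Scgb1a1, Scgb3a1, Scgb3a2 and Bpifa1 rose in the high line and Scgb1a1 in the low line, of 6 tested. Mesothelial markers summed to 1407 to 1508, 1459.9 to 1599 and 943 to 1060.5; of 6, Upk3b and Lrrn4 rose in both lines, and Msln rose and Upk1b fell in the low line. No marker was listed at 0 in the deposited values. The part of these lists in the differences of the TGF-beta genes and their targets was not tested.

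**Figure D4:**
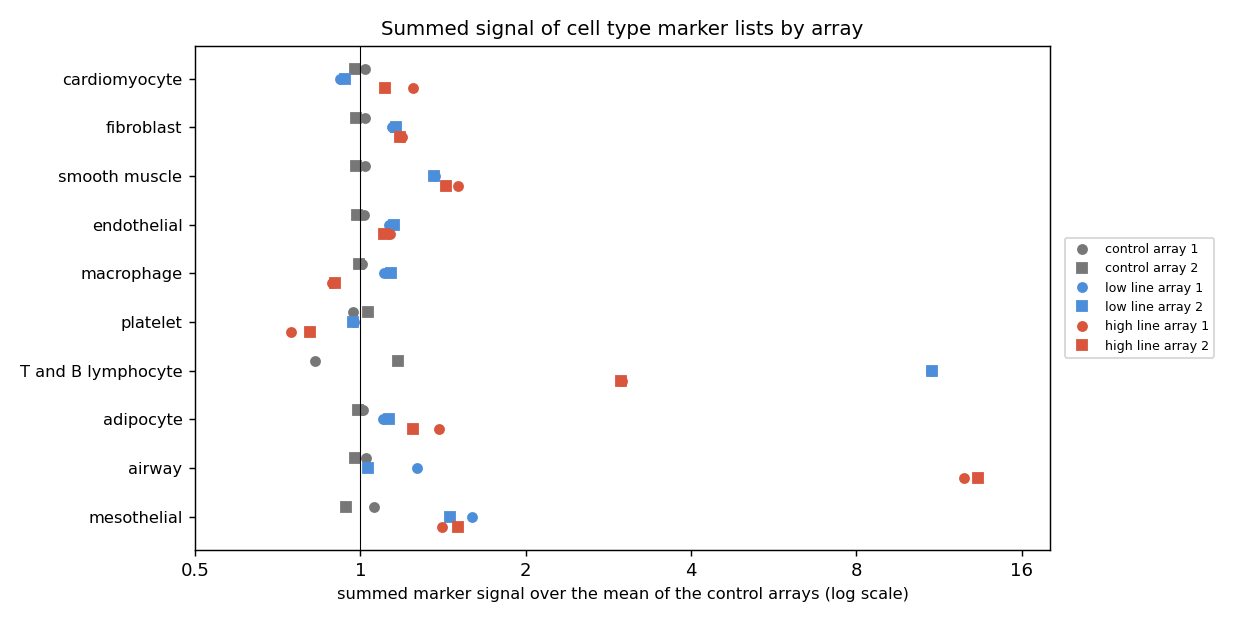
Summed signal of each cell type marker list on each array, divided by the mean of the control arrays (horizontal log axis); circles are array 1 and squares array 2. Fibroblast, smooth muscle, endothelial, adipocyte, airway, mesothelial and lymphocyte sums are above both controls on every transgenic array. Lymphocyte sums are highest in the low line. Airway sums are 3092 to 3282 in the high line and 255 to 313 in the low line, against 241 to 252 in controls.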

How the data were processed

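Total RNA from hearts was measured as biotin-labelled cRNA on 6 Affymetrix arrays. The authors deposited linear signal intensities per probe set, made with GCOS per the submitters' processing notes. The labels state neither its version nor the summary algorithm or scaling. Only these signals were used.

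Of 45101 probe sets, 64 controls were set aside. Symbols came from the platform annotation of the array. Of the other 45037, 34945 had 1 symbol, 932 several and 9160 none listed. Values were analysed as log2(signal + 16), which understates changes of dim genes. Probe sets at or above the median mean level (a signal of about 47.0) were tested, 22519 in all. The 3 groups on all 6 arrays entered 1 limma 3.58.1 fit in R 4.3.3 (lmFit, then eBayes with trend = TRUE; residual degrees of freedom 3, prior 6.43), with two-sided Benjamini-Hochberg adjusted p-values, and the script was tested on simulated data. Groups were taken from the sample titles, since the tissue label reads transgenic heart for every sample, controls included. The members, the lists of other genes and the tests were chosen with earlier results of these data known. Named are the members, a fixed panel of pathway genes and up to 4 called genes of each list. The latter had the smallest adjusted p of the list in any of the 3 comparisons, high against low line included. Also named are genes in counts of 5 or fewer, which (Bambi, Acvr1, Timp1, Cdkn1a, Id1, Smurf2, Nedd4l, Dcn and the cell type markers) were chosen after their values were seen. Alternatives changed the normalization, pseudocount, filter, variance model, arrays fitted, block and probe sets per gene, and left out each array. Figures used matplotlib 3.10.9 under Python 3.11.15.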

Additional observations from a re-analysis of the deposited data

Results flagged for a closer look

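None of the TGF-beta members differed between the lines at the threshold. Among the pathway and target genes that the naming rule picked, 16 differed between the lines by the limma test (adjusted p below 0.05). The rule itself used this comparison, so the count was partly fixed by the choice of genes and is not a result about the pathway. Of all tested probe sets 18.6% passed between the lines. Of the 16, Tgfbr3 and Eng did not pass against control in either line. The high line exceeded the low line, on the log2 scale, for Id3 by 0.67, Bgn by 0.61, Acvr1b by 0.56, Eng by 0.39, Mmp14 by 0.37, Tgfbr3 by 0.24 and Smad4 by 0.24. The low line exceeded the high line for Eln (-1.01), Bmpr1a (-0.59), Col1a1 (-0.58), Usp15 (-0.46), Postn (-0.41), Skil (-0.41), Col3a1 (-0.40), Mmp2 (-0.34) and Itgb1 (-0.24). Of the genes named outside the rule, Id1 (0.52), Smurf2 (-0.33) and Dcn (0.18) also passed. Eln, Bmpr1a, Col1a1, Id3 and Bgn passed in 18 of 18 alternative fits. Several others were lost when an array was left out: Eng without high-line array 2 or low-line array 1 (adjusted p up to 0.17), Mmp14 without high-line array 1 or either low-line array (0.145), and Smad4 without high-line array 2 or either low-line array (0.142). Without either low-line array Tgfbr3 (up to 0.154), Mmp2 (0.0931) and Smurf2 (0.0984) were lost, and Dcn without those or either control array (0.207). Itgb1 passed in 9 of 18 fits and was lost without any array but high-line array 1 (up to 0.172). Usp15 (0.0782) and Id1 (0.0587) were lost without low-line array 2 and Skil (0.0568) without low-line array 1. With the untrended variance all of these but Usp15 were lost, as were Acvr1b (0.0501), Col3a1 (0.0581) and Postn (0.0614). With 2 arrays a group, single arrays that stand apart from their group were not tested.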

How the results depend on the processing

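Ltbp1 kept its rise and its side of the threshold in both lines under all 18 alternatives. The untrended variance called 1233 probe sets for the high line, 3576 for the low line and 1449 between lines, and 1 of the 14 TGF-beta probe sets against control in each line. A single probe set per gene gave 3449 calls in the low line, 2609 between the lines and 1 member between the lines (Tgfbr1), as did the filter at the 75th percentile (1 member). These fits tested fewer probe sets. Leaving out single arrays gave 1398 to 3493, 2897 to 6476 and 1553 to 4158 calls over all probe sets, and 2 to 3, 1 to 3 and 0 to 1 member calls.

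Signs that turned belonged to differences that had not passed, apart from Dcn between the lines, which was 0.18 and became -0.036 with quantile normalization. Tgfb3 between the lines became 0.0021 with quantile and 0.0079 with cyclic loess normalization. Leaving out single arrays, the high-line differences spanned -0.73 to 0.23 for Tgfb2 1438303_at, -0.079 to 0.26 for Tgfb3 and -0.015 to 0.079 for Tgfbr1. Those of the low line spanned -0.43 to 0.082 for Tgfb1, -0.21 to 0.46 for Tgfb2 1450923_at, -0.86 to 0.071 for Tgfb2 1438303_at, -0.079 to 0.26 for Tgfb3 and -0.043 to 0.67 for Ltbp2. Between the lines they spanned -0.28 to 0.39 for Tgfb2 1450923_at, -0.34 to 0.62 for Tgfb2 1438303_at, -0.16 to 0.16 for Tgfb3, -0.070 to 0.27 for Ltbp1 1447547_at, -0.15 to 0.56 for Ltbp2, -0.025 to 0.12 for Smad3 and -0.39 to 0.0075 for Smad7 1423389_at. The cause was not tested. The untrended variance lost the member calls of Tgfb2 and both Smad7 probe sets in the high line and of Tgfbr1 in the low line, as given above. Of the other named calls against control, it lost those of Ltbp3, Ltbp4, Bambi, Smad4, Sp1, Tab1, Skil, Pmepa1, Id3 and Cdkn1a in the high line and of Acvr1, Smurf2, Nedd4l, Id1 and Id3 in the low line (adjusted p 0.0596 to 0.152). Testing every probe set without a filter lost the calls of Ltbp3, Ltbp4, Acvrl1, Bambi, Tab1, Pmepa1, Nodal and Cdkn1a in the high line and of Fbn2, Acvr1, Nedd4l and Bmp2 in the low line (0.0596 to 0.106).

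The replicate numbers did not pair the arrays: correlations of same-numbered deviations were 0.040, 0.027 and 0.00040. With the replicate number as a block 3392, 5647 and 4325 probe sets passed, and 4, 2 and 0 of the members.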
